A study of Homo sapiens with 2 samples.

Results

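The transcripts of 10 genes of the endoplasmic reticulum (ER) protein-folding system were followed in single cells treated with SP11 and in untreated cells. The genes were HSPA5, DNAJB11, PDIA3, PDIA4, PDIA6, CALR, SDF2L1 and HYOU1, which act in folding, XBP1, a transcription factor of the unfolded protein response, and SYVN1, a ligase of ER-associated degradation. They were chosen by name, and all 10 were found among the 36601 genes of both matrices. SP11 is described in the study as an inhibitor of HSP90, the cytosolic chaperone on which many kinases and receptors depend. One library came from cells exposed to 0.8 µM SP11 during 48 h, and the other from untreated control cells collected at the same time. Both were labelled as MOLT4, a line derived from a T-cell leukemia, with no genetic change named in the labels. With a single library per group there was no replicate check and no test between groups, and the values below describe the 2 libraries, not the conditions.

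Proteins that enter the secretory pathway fold in the ER lumen, where HSP70-type chaperones with their co-chaperones, lectin chaperones and disulfide isomerases hold and shape them. Proteins that fail to fold are carried back to the cytosol and degraded. When unfolded protein accumulates, the sensors IRE1 (encoded by ERN1), ATF6 and PERK (encoded by EIF2AK3) start the unfolded protein response, in which IRE1 splices XBP1 mRNA into the form that encodes an active factor, and spliced XBP1 and ATF6 raise chaperone and degradation genes.

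The SP11 matrix held 864 barcodes and the control matrix 1076. Of these, 852 SP11 and 1053 control cells passed the minimum of 200 genes and the maximum of 20% mitochondrial UMIs, where a UMI is a tag marking 1 captured RNA molecule. Kept cells had 9498802 UMIs in SP11 and 19375163 in control, with medians of 10488.5 and 17711 per cell and median mitochondrial shares of 5.51% and 8.94%. The libraries shared 114 barcode sequences, and ratios without these are given below. The defining transcripts of the labelled T-cell line were at or near 0, since 10 of 16 T-lineage markers had no UMI in each library and the list summed to 2.0 CPM in SP11 and 2.43 CPM in control. Among those at 0 in both were CD3D, CD3G, CD7, TRBC1, TRBC2, BCL11B and DNTT. Granulocyte precursor markers (ELANE, AZU1, PRTN3, MPO, CTSG and LTF) summed to 990 CPM in SP11 and 2255 CPM in control. None was at 0 in either, but MPO (5 UMIs in SP11 and 3 in control) and LTF (2 and 1 UMIs) were near it, so the sums came from ELANE, AZU1, PRTN3 and CTSG. Monocyte or macrophage markers (LYZ, CD14, CSF1R, FCN1, VCAN and MRC1) summed to 753 CPM in SP11, with 2 of 6 at 0, and 252 CPM in control, with 1 of 6 at 0, of which LYZ alone made 736 CPM in SP11 and 241 CPM in control. B or plasma cell markers summed to 11.7 CPM in SP11 and 8.93 CPM in control. The data therefore go against the T-cell label, and the cells are called SP11 and control cells below. The part of these differing marker levels in the values below was not tested.

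Promoters of several genes that the unfolded protein response raises are known for the ER stress response element (ERSE, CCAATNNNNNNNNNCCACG) and its relative ERSE-II (ATTGGNCCACG). These are bound by ATF6 and XBP1 together with NF-Y. Another such element is the unfolded protein response element (UPRE, TGACGTGG), bound by XBP1. Windows of 250 bases before to 50 after each RefSeq transcription start (GRCh38.p14) were searched for these letters on both strands. An entry was present for 9 of the 10 genes, and PDIA3, which had none, was not searched. ERSE occurred in 27 of 35116 windows (0.0769%), ERSE-II in 19 (0.0541%) and UPRE in 256 (0.729%). The 6 stretches upstream of the start are read along the strand of the gene, with the matched letters in capitals. They are printed because they carry every match found among the 9 genes searched and let it be seen which genes with an element differed between the libraries. The stretch of HSPA5 lies at chr9:125241381-125241419 (minus strand), that of PDIA6 at chr2:10812843-10812881 (minus), that of XBP1 at chr22:28800593-28800631 (minus), that of CALR at chr19:12938374-12938412 (plus), that of SDF2L1 at chr22:21642104-21642134 (plus) and that of HYOU1 at chr11:119057264-119057403 (minus).
HSPA5 (ERSE): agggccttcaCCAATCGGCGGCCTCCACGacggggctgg
PDIA6 (ERSE): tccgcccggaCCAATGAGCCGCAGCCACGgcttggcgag
XBP1 (ERSE): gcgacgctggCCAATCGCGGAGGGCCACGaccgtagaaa
CALR (ERSE on the other strand): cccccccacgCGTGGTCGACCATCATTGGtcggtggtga
SDF2L1 (ERSE-II on the other strand): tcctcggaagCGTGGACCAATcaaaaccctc
HYOU1 (UPRE overlapping an ERSE-II on the other strand, then a separate ERSE-II on the other strand): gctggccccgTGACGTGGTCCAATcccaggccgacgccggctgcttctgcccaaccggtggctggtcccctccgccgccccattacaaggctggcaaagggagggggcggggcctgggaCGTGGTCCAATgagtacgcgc

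The ERSE began 66 bases upstream of the start in HSPA5, 86 in PDIA6, 52 in XBP1 and 225 in CALR. The matches of PDIA6 and XBP1 each stood in the window of 1 of the gene's 2 listed starts. ERSE-II began 188 bases upstream in SDF2L1, and in HYOU1 it began 185 and 79 bases upstream, with the UPRE starting 188 bases upstream and sharing letters with the farther copy. These letters did not occur in the windows of DNAJB11, PDIA4 or SYVN1. A match is a description of the letters, not a site or a cause.

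HSPA5 encodes BiP, the main HSP70 of the ER lumen, and its gene lies on chromosome 9 (125234853 to 125241382, minus strand, with the positions of GENCODE 44 on GRCh38 here and below). It had 2229 UMIs in SP11 and 3155 in control, which is 235 CPM (95% Poisson interval 225 to 245) in SP11 and 163 CPM (157 to 169) in control. CPM here is a gene's share of the UMIs of the kept cells times 1000000, not divided by gene length, so levels of different genes are not ranked. The log2 ratio of SP11 over control was 0.53 (95% interval 0.45 to 0.61), so the level in SP11 was 1.44 times that in control, and both intervals cover counting error only.

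DNAJB11 is the J-domain co-chaperone that hands unfolded chains to BiP (chromosome 3, 186567403 to 186585800, plus strand). It stood at 50.3 CPM (45.9 to 55.0) in SP11 and at 26.5 CPM (24.3 to 28.9) in control, from 478 and 514 UMIs. Its log2 ratio of 0.92 (0.74 to 1.11) was the highest among the 10 genes over all kept cells and above that of 95.3% of all measured genes. SDF2L1 forms a complex with DNAJB11 in the ER and keeps client proteins soluble (chromosome 22, 21642302 to 21644299, plus strand). It stood at 111 CPM (105 to 118) in SP11 and 64.8 CPM (61.2 to 68.5) in control, a log2 ratio of 0.78 (0.66 to 0.90). BiP and these partners were thus all higher in SP11 beyond counting error. HYOU1 (GRP170), the large HSP70-like protein that exchanges nucleotide on BiP, was not (chromosome 11, 119044188 to 119057227, minus strand). It had 21.5 CPM (18.6 to 24.6) in SP11 and 25.1 CPM (23.0 to 27.5) in control, a log2 ratio of -0.23 (-0.47 to 0.01).

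CALR, calreticulin, is the soluble lectin chaperone that binds glycoproteins bearing a trimmed glucose and buffers calcium in the ER lumen (chromosome 19, 12938578 to 12944489, plus strand). It stood at 671 CPM (654 to 687) in SP11 and 499 CPM (489 to 509) in control, a log2 ratio of 0.43 (0.38 to 0.47). PDIA3 (ERp57) is the disulfide isomerase that works with calreticulin (chromosome 15, 43746394 to 43773279, plus strand). It had 305 CPM (294 to 316) in SP11 and 260 CPM (253 to 267) in control, a log2 ratio of 0.23 (0.16 to 0.30). Both partners were higher in SP11. The ratio was larger for CALR on this scale, but with the median of genes of like intronic length subtracted the values were 0.32 for CALR and 0.39 for PDIA3.

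PDIA4 (ERp72) and PDIA6 (P5) are further disulfide isomerases, and both are found with BiP. PDIA4 (chromosome 7, 149003062 to 149028662, minus strand) had 90.0 CPM (84.1 to 96.3) in SP11 and 66.6 CPM (63.0 to 70.4) in control, a log2 ratio of 0.43 (0.31 to 0.56). PDIA6 (chromosome 2, 10783391 to 10837977, minus strand) had 254 CPM (244 to 264) in SP11 and 309 CPM (301 to 317) in control, a log2 ratio of -0.29 (-0.35 to -0.22). The 2 isomerases thus differed in direction on this scale. PDIA6 has 50491 intronic bases, the most of the 10 genes, and measured genes in the same 1 of 20 bins of intronic length had a median log2 ratio of -0.47. With that median subtracted, its value was 0.18.

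XBP1 (chromosome 22, 28794555 to 28800597, minus strand) had 444 UMIs in SP11 and 964 in control, or 46.7 CPM (42.5 to 51.3) and 49.8 CPM (46.7 to 53.0). Its log2 ratio was -0.09 (-0.26 to 0.07), so a difference was not detectable on the CPM scale at this depth. Relative to the median of all measured genes, its value was 0.26. Counts per gene do not separate the spliced from the unspliced form, so nothing here bears on XBP1 splicing.

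SYVN1 encodes HRD1, the ubiquitin ligase at the centre of the main degradation complex of the ER membrane (chromosome 11, 65121780 to 65134532, minus strand). Only 29 UMIs were counted in SP11 and 98 in control, which is 3.05 CPM (2.04 to 4.38) in SP11 and 5.06 CPM (4.11 to 6.16) in control. The log2 ratio was -0.73 (-1.38 to -0.12), the lowest among the 10 genes over all kept cells and the only one at least 1.5-fold lower in SP11. SYVN1 shares 398 bases on the same strand with FAU, a ribosomal protein gene with 18724 UMIs in SP11 and 21355 in control and a log2 ratio of 0.84. No source used here says how reads in the shared bases were counted, so the SYVN1 count is uncertain. It also shares 5189 bases with MRPL49 on the opposite strand (140 UMIs in SP11 and 160 in control). The other 9 genes overlapped annotated genes only on the opposite strand, if at all, each with at most 115 UMIs in either library.

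**Figure D1:**
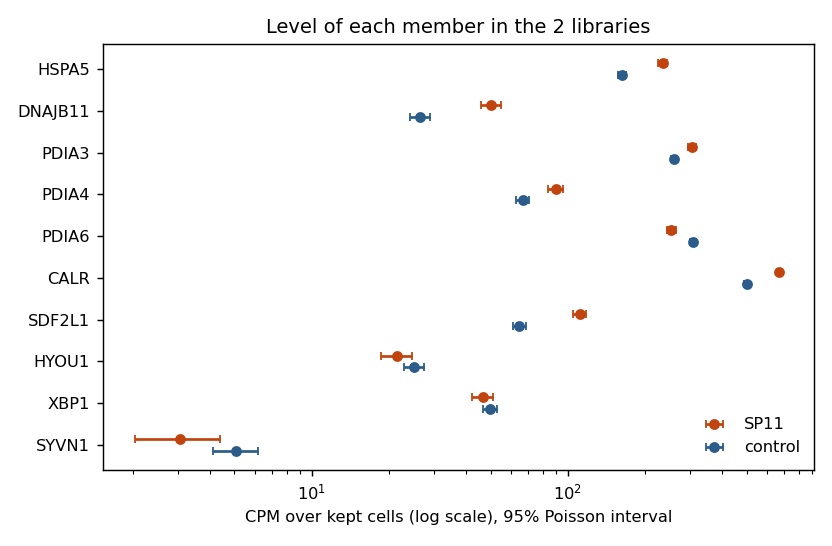
Level of each of the 10 genes in the SP11 library (upper point of each pair) and the control library (lower point), in CPM over kept cells on a log axis, with 95% Poisson intervals that cover counting error only. DNAJB11, at 50.3 CPM in SP11 and 26.5 CPM in control, shows the widest gap with SP11 higher, and SYVN1, at 3.05 and 5.06 CPM, the widest with SP11 lower.

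The median of the 12128 measured genes, those with at least 50 UMIs when the libraries are added, was -0.35 on the same log2 scale, so a typical gene was lower in SP11 as a share of all UMIs. Of the 10 genes, 2 (DNAJB11 and SDF2L1) were at least 1.5-fold higher in SP11, against 10.7% of all measured genes, and 1 (SYVN1) was at least 1.5-fold lower, against 38.4%. Relative to the median gene, HSPA5, DNAJB11, PDIA4, CALR and SDF2L1 were at least 1.5-fold higher, against 22.5% of all measured genes. None of the 10 was at least 1.5-fold lower on that scale, against 24.3%. The 8 folding genes had a median log2 ratio of 0.43. Summed, they took 1737 CPM in SP11 and 1415 CPM in control, a ratio of 1.23 (1.20 to 1.25). Scaling by TMM or by DESeq2 size factors, which brings the median gene to -0.01 or 0.01, turned PDIA6 (0.06 or 0.08), HYOU1 (0.12 or 0.14) and XBP1 (0.25 or 0.27) to positive values, while SYVN1 stayed negative (-0.38 or -0.36). The direction of HSPA5, DNAJB11, PDIA3, PDIA4, CALR, SDF2L1 and SYVN1 was thus the same under each scaling, and that of PDIA6, HYOU1 and XBP1 was not. The TMM and DESeq2 values carry no intervals, and SYVN1 rests on only 29 UMIs in SP11 and 98 in control.

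**Figure D2:**
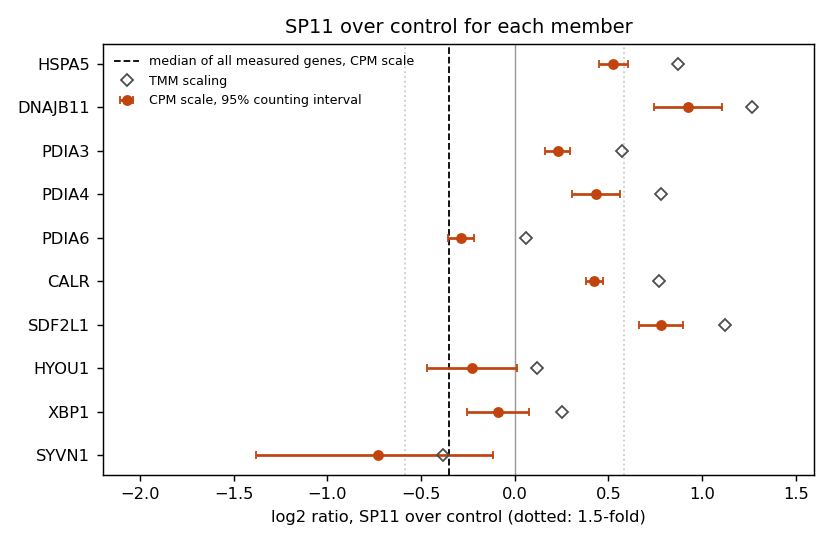
Log2 ratio of SP11 over control for each of the 10 genes on the CPM scale (filled points, with 95% counting intervals) and under TMM scaling (open diamonds). The dashed line marks the median of all measured genes at -0.35, the dotted lines mark 1.5-fold in either direction, and PDIA6, HYOU1 and XBP1 change sign between the scalings.

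Without the barcodes found in both libraries, the values moved little. The log2 ratio was then 0.52 for HSPA5, 0.91 for DNAJB11, 0.81 for SDF2L1, 0.43 for CALR, -0.27 for PDIA6, -0.08 for XBP1 and -0.64 for SYVN1, and again 2 of the 10 genes were at least 1.5-fold higher in SP11 and 1 was lower.

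Depth differed between the libraries, so cells were also thinned to 4400 UMIs each, which kept 769 SP11 and 963 control cells and left out 83 and 90 shallower ones. HSPA5 then had a UMI in 61.1% of SP11 cells (exact 95% binomial interval 57.6 to 64.6) and 49.1% of control cells (45.9 to 52.3). In unthinned cells the shares were 81.9% in SP11 and 82.1% in control. The difference in HSPA5 was therefore visible in the share of cells with a UMI only at equal depth. SDF2L1 was detected in 38.5% of SP11 cells (35.0 to 42.03) and 21.7% of control cells (19.1 to 24.4), and unthinned in 62.9% and 61.5%. DNAJB11 was detected in 20.2% of SP11 cells (17.4 to 23.2) and 11.4% of control cells (9.48 to 13.6), and unthinned in 40.1% and 35.7%. Both partners of BiP thus had intervals at equal depth that did not overlap between the libraries, as did HSPA5 itself. For PDIA4 the shares were 32.9% in SP11 and 24.1% in control, and for CALR 92.3% and 86.9%. PDIA3 was detected in 72.6% of SP11 cells (69.3 to 75.7) and 66.4% of control cells (63.3 to 69.3), with bounds that just overlapped. HYOU1 was detected in 9.36% of SP11 cells (7.40 to 11.6) and 8.52% of control cells (6.83 to 10.5), overlapping intervals and the opposite direction to its ratio over all cells. PDIA6 went the other way, with 64.5% of SP11 cells (61.0 to 67.9) and 72.8% of control cells (69.9 to 75.6). XBP1 was found in 18.6% of SP11 cells (15.9 to 21.5) and 18.5% of control cells (16.1 to 21.1), and SYVN1 in 1.82% (0.999 to 3.04) and 2.39% (1.52 to 3.56), so neither of these genes differed detectably in this measure. No cell type that lacks these genes was present to give a background, so the part of free RNA in the shares was not measured.

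Per cell, the 8 folding genes together had a median of 7 UMIs of 4400 in SP11 and 6 in control. The variance over the mean of this sum was 1.47 in SP11 and 1.20 in control, where counting alone gives about 1. The middle 90% of cells spanned 3 to 13 UMIs in SP11 and 2 to 11 in control, and 4 SP11 and 6 control cells had none. The highest cell held 28 UMIs in SP11 and 16 in control. The SP11 cells were thus shifted to higher counts as a whole, with a wider upper tail. No single cell supplied more than 1.47% of a folding gene's UMIs in either library.

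**Figure D3:**
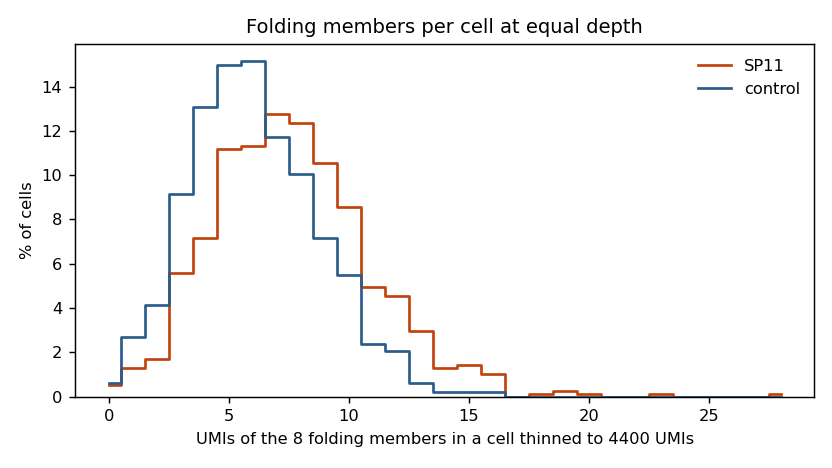
Share of cells (in %) by the summed UMIs of the 8 folding genes in each cell after thinning to 4400 UMIs, for 769 SP11 cells and 963 control cells. The SP11 curve lies to the right of the control curve, with medians of 7 and 6 UMIs, and reaches 28 against 16.

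Across cells of a library the correlations between single folding genes were low. Counts this sparse cannot show whether the genes varied together. Over thinned cells the highest Pearson correlation between any pair of the 10 genes was 0.12 (HSPA5 with PDIA6, 769 SP11 cells), and in 963 control cells it was 0.08 (HSPA5 with CALR). Against the sum of the other folding genes, r ran between 0.06 (PDIA3) and 0.15 (HSPA5) in SP11. In control it ran between -0.03 (DNAJB11) and 0.10 (CALR), with HSPA5 at 0.02. These cells share their library, and in sparse counts correlations of this size are no finding. The genes whose level followed the folding sum most closely in both libraries, out of 3173 with enough UMIs, were SRGN (r of 0.20 in SP11 and 0.13 in control), GLO1 (0.11 and 0.11), CTSD (0.17 and 0.10), SMC1A (0.10 and 0.09) and TPM3 (0.09 and 0.11). All of these were weak too.

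The ratios differed between cells called in different cell cycle phases. HSPA5 stood at 254 CPM in SP11 and 165 CPM in control among G1 cells, a log2 ratio of 0.63 (0.46 to 0.79). Among S cells it stood at 190 CPM in SP11 and 171 CPM in control, a log2 ratio of 0.15 (-0.00076 to 0.30), and among G2M cells at 257 and 155 CPM, a log2 ratio of 0.72 (0.61 to 0.84). The gap in HSPA5 was thus narrower in S cells than in the others, with an interval that did not overlap theirs. SDF2L1 had ratios of 0.62 (0.35 to 0.88) in G1, 0.59 (0.38 to 0.80) in S and 0.99 (0.81 to 1.18) in G2M cells. Its S and G2M intervals did not overlap. CALR had 0.59 (0.49 to 0.69) in G1, 0.28 (0.20 to 0.37) in S and 0.40 (0.34 to 0.47) in G2M cells. Its G1 interval overlapped neither of the others. DNAJB11 had 0.89, 1.04 and 0.85 and PDIA4 had 0.41, 0.41 and 0.47 in the same order. For DNAJB11 and for PDIA4 the intervals of the phases overlapped. XBP1 was at -0.37 (-0.70 to -0.05) in S cells and at 0.03 (-0.20 to 0.25) in G2M cells. SYVN1 in S cells rested on 4 UMIs in SP11 and 27 in control, a log2 ratio of -1.94 with an interval of -3.92 to -0.42. Cells called S numbered 285 in SP11 and 289 in control, G1 cells 183 and 405, and G2M cells 384 and 359. These phases come from expression scores and can themselves be affected by depth and by free RNA, whose part was not tested.

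**Figure D4:**
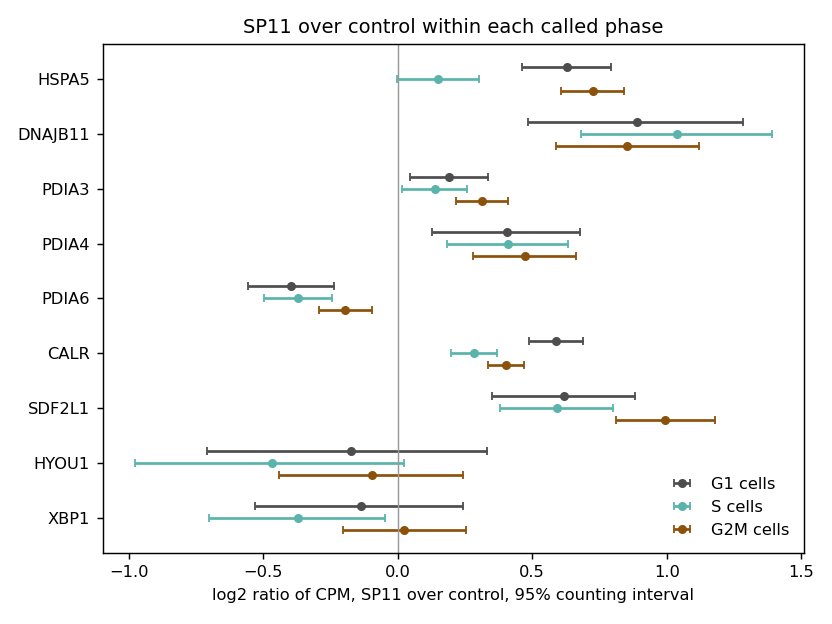
SP11 over control, as log2 ratios of CPM, in 9 of the genes within cells called G1, S or G2M, with 95% counting intervals (SYVN1 is left out because its counts are low). HSPA5 lies at 0.15 in S cells and at 0.63 and 0.72 in G1 and G2M cells, whereas DNAJB11 and PDIA4 have intervals that overlap across the phases.

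Depth was also held between the libraries by taking only cells with 7000 to 14000 UMIs, 454 in SP11 and 193 in control. The log2 ratio in these cells was 0.53 for HSPA5, 0.89 for DNAJB11, 0.94 for SDF2L1, 0.54 for PDIA4, 0.15 for PDIA3 and 0.67 for CALR. It was -0.20 for PDIA6, -0.15 for HYOU1 and -0.27 for XBP1. Each of these kept the sign it had over all cells.

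Clusters were made in each library alone and are called by number. Leaving aside a cluster of shallow barcodes in each library (70 SP11 cells with a median of 1826 UMIs and 76 control cells with a median of 787.5), the folding sum varied little among clusters, between 1626 and 1837 CPM in SP11 and between 1314 and 1523 CPM in control. The lowest SP11 cluster was above the highest control cluster. HSPA5 ran between 192 CPM (169 to 217) in SP11 cluster 3, led by CXCL10 and the histone genes HIST1H2AM and HIST2H2AC, and 290 CPM (265 to 316) in SP11 cluster 2, led by RN7SL832P, STPG4 and AC004687.1. In control it ran between 151 and 193 CPM. XBP1 in SP11 was highest in cluster 1, led by PIF1, DYRK1B and UBE2C, with 58.7 CPM (50.1 to 68.3), and lowest in cluster 5, 20 cells led by ATP6V0D2, SLC26A11 and TDO2, with 14.3 CPM (3.91 to 36.7) from 4 UMIs. The next lowest SP11 cluster, number 0, had 37.6 CPM (31.0 to 45.1). In control XBP1 lay between 45.2 and 67.4 CPM. The highest cluster over the lowest was 4.09 times in SP11 and 1.49 times in control, but at a clustering resolution of 0.8 in place of 0.5 it was 1.84 and 1.55 times, so the wider span in SP11 rested on those 4 UMIs. Without SP11 cluster 5 the XBP1 ratio was -0.06.

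The 8 folding genes were next set against the rest of the ER folding and degradation machinery. Of 36 other ER folding genes listed, 34 were measured. In SP11, 4 of these were higher by 1.5-fold or more (all genes 10.7%) and 10 were lower by as much (all genes 38.4%), and their median log2 ratio was -0.19. Relative to the median gene the balance turned, with 9 higher (all genes 22.5%) and 3 lower (all genes 24.3%). FKBP2, a prolyl isomerase of the ER, stood at 5.05 CPM in SP11 and 2.37 CPM in control (1.09, interval 0.48 to 1.71), PRDX4, a peroxiredoxin of the ER, at 291 and 175 CPM (0.74), and CRELD2, known as a target of the unfolded protein response, at 34.5 and 20.8 CPM (0.73). HSP90B1, the ER form of HSP90, stood at 511 CPM in SP11 and 312 CPM in control, a log2 ratio of 0.71 (0.66 to 0.77). P4HB, the founding disulfide isomerase, had 0.24 (0.20 to 0.28), and CANX, the membrane-bound counterpart of CALR, had -0.02 (-0.10 to 0.06). At the low end were UGGT2, a glucosyltransferase that marks unfolded glycoproteins (-1.24, 58.2 CPM in SP11 and 138 CPM in control, and -0.41 with the intronic length trend subtracted), CRELD1 (-1.24) and FKBP14 (-0.96). The named chaperones were therefore not typical of the wider list, which holds genes past 1.5-fold in both directions.

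All 34 degradation genes found in the files were measured. Past 1.5-fold, 6 were higher in SP11 (all genes 10.7%) and 6 were lower (all genes 38.4%), with a median of 0.01, and relative to the median gene 12 were higher (all genes 22.5%) and 3 lower (all genes 24.3%). The other folding genes minus the degradation genes thus came to -0.19 between medians. This difference was -0.43 in G1 cells, -0.39 in S cells, -0.03 in G2M cells and -0.29 over genes with 200 or more UMIs. The median of the 8 folding genes (0.43) was above both list medians, although PDIA6 and HYOU1 were below both and each list held genes above all 8. SELENOS, a selenoprotein that recruits the extraction ATPase VCP to the ER membrane, had 1154 UMIs in SP11 and 684 in control, or 121 and 35.3 CPM, a log2 ratio of 1.78 (1.65 to 1.92). UBXN8, another VCP adaptor of the ER membrane, had 1.07 (0.79 to 1.34), and UFD1, a VCP cofactor, stood at 119 CPM in SP11 and 59.1 CPM in control (1.01, interval 0.89 to 1.13). These 3 genes were named by their ratio, so their shared link to VCP is no result about VCP partners as a group. Nearer to SYVN1, its scaffold SEL1L had -0.08 (-0.28 to 0.12) and its partner HERPUD1 had -0.27 (-0.56 to 0.01). FAM8A1, which binds the SYVN1 complex, was the lowest, with 17 UMIs in SP11 and 107 in control (-1.63, interval -2.46 to -0.88), followed by DERL3 (-1.42, from 24 and 131 UMIs) and UBAC2 (-1.03, 95.7 CPM in SP11 and 196 CPM in control), or -0.20 with the intronic length trend subtracted.

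All 18 listed sensors and factors of the unfolded protein response were measured, of which 1 was higher by 1.5-fold or more in SP11 (all genes 10.7%) and 9 were lower by as much (all genes 38.4%), with a median of -0.55. Relative to the median gene 4 were higher (all genes 22.5%) and 4 lower (all genes 24.3%). The 3 sensors were all lower on the CPM scale. ERN1 stood at 11.3 CPM in SP11 and 39.0 CPM in control, a log2 ratio of -1.79 (-2.10 to -1.50). ATF6 stood at 40.7 CPM in SP11 and 65.0 CPM in control (-0.67, interval -0.84 to -0.51), and with the median of genes of like intronic length subtracted its value was 0.16. EIF2AK3 stood at 8.95 and 17.4 CPM (-0.96, interval -1.32 to -0.62), and at -0.38 with that subtraction, while ERN1 was at -1.22. The ATF6 relative ATF6B had -1.24 and CREB3L2, a factor of the same type, had -1.09 (-0.40 with that subtraction). Downstream of PERK, ATF4 had -0.50 (-0.62 to -0.37) and DDIT3, which encodes the stress factor CHOP, had -0.79 (-1.21 to -0.39), with 6.84 CPM in SP11 and 11.9 CPM in control. In cells with 7000 to 14000 UMIs, ATF6 came to -0.31, EIF2AK3 to -0.27 and ATF4 to -0.15, nearer to 0 than over all cells. In the same cells ERN1 was at -1.53 and DDIT3 at -0.76. The genes at the other end were PPP1R15A, which encodes GADD34 (0.66), TRIB3 (0.44) and RTCB, the ligase that joins the exons of spliced XBP1 mRNA (0.44, interval 0.30 to 0.58).

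The remaining lists cover the steps before and after folding. Of 24 measured genes of translocation and signal peptide removal, 10 were higher by this size in SP11 and 3 lower, with a median of 0.38 (16 and 1 relative to the median gene). They were led by SEC61G, a subunit of the translocation channel (528 CPM in SP11 and 163 CPM in control, 1.70), SRP19 (1.16) and SEC61A1, the channel itself (1.11). SEC61A2 (-1.01), SRP9 (-0.93) and SRP54 (-0.67) stood at the other end. Of 23 measured genes of N-glycan synthesis and transfer, 7 were higher and 2 lower, with a median of 0.20 (11 and 0 relative to the median gene), and TMEM258 and KRTCAP2, small subunits of the oligosaccharyltransferase, had 1.33 and 1.17 and the mannosyltransferase ALG1 had 1.27. ALG6 (-0.70), ALG9 (-0.61) and STT3B (-0.45), a catalytic subunit, were lowest, and with the intronic length trend subtracted STT3B turned to 0.13 and ALG9 came to -0.04. Of 24 measured genes of traffic between ER and Golgi, 3 were higher and 3 lower, with a median of 0.15 (12 and 1 relative to the median gene), between ERGIC3 (1.16), PREB (0.74) and SEC13 (0.62) at one end and SEC24D (-1.02), ERGIC1 (-0.80) and SEC23A (-0.59, or -0.08 with the trend subtracted) at the other. The all-gene shares beside these counts were 10.7% higher and 38.4% lower on the CPM scale, and 22.5% and 24.3% relative to the median gene. Each of these medians was above that of all measured genes (-0.35), and that of the sensors was below it. With the intronic length trend subtracted the median was 0.48 for the 8 folding genes and 0.52 for translocation, so the order of these lists was not stable.

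**Figure D5:**
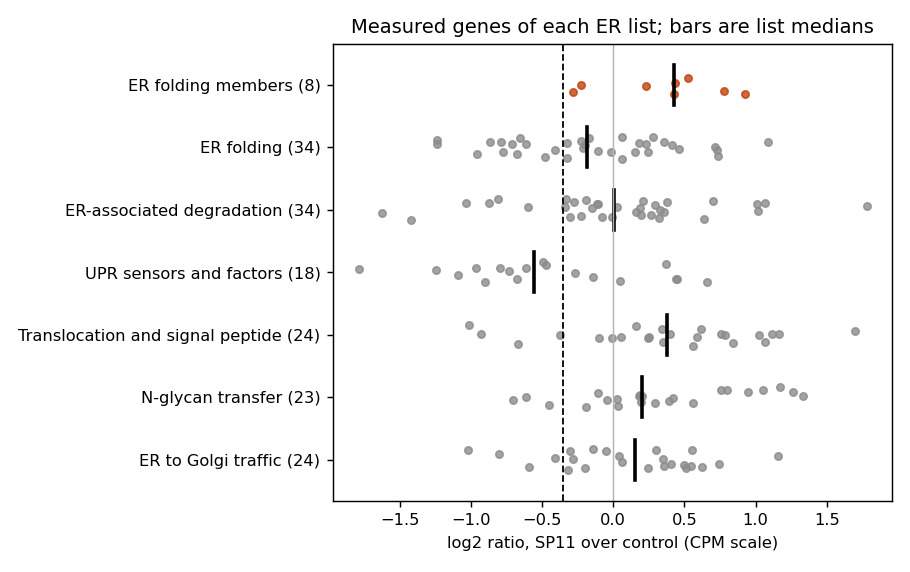
Log2 ratio of SP11 over control (CPM scale) for every measured gene of each list, 1 point per gene with the number of genes in parentheses. Black bars are list medians and the dashed line marks -0.35, the median over all measured genes. The 8 folding genes have the highest median (0.43) and the unfolded protein response sensors and factors the lowest (-0.55).

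An element match was found in the promoter windows of 5 of the 7 folding genes with an entry (HSPA5, PDIA6, CALR, SDF2L1 and HYOU1, printed above) and in 7 of 32 other folding genes, 3 of 26 degradation genes, 0 of 17 sensors and factors, 4 of 21 translocation genes, 1 of 21 N-glycan genes and 4 of 21 traffic genes. Of all genes with an entry, 1.08% had one. The elements are known from promoters of genes that the unfolded protein response raises, so these shares are a description, not a test. In the other folding list ERSE was in CRELD2, HSP90B1, CANX and ERO1B. Genes with a match lay in both directions on the CPM scale, also outside the folding lists, as with SRP19 (1.16) and SEC23A (-0.59). The values that follow are those of the 10 genes and of the ERSE genes in the other folding list. HSPA5, CALR, SDF2L1, HSP90B1 and CRELD2 were higher in SP11 beyond counting error. PDIA6 was lower (-0.29, but higher with TMM or DESeq2 factors), as was ERO1B (-0.33, interval -0.55 to -0.11, or 0.03 relative to the median gene). HYOU1 (-0.23), XBP1 (-0.09) and CANX (-0.02) had intervals that reached 0 or above. DNAJB11, with the highest ratio of the 10 genes, had none of these letters in its window.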

How the data were processed

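Single-cell RNA was measured in 2 libraries, grouped by the labels' treatment field. The authors deposited unnormalized UMI counts per gene and barcode. The file headers name Cell Ranger 7.1.0, and GRCh38 (hg38) is the build in the submitters' processing notes. No source used here says whether reads in introns were counted.

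The study's stated filters (200 or more genes, up to 20% mitochondrial UMIs) were applied and left more cells of both libraries here than it reports, by a wider margin in control. Scrublet (scanpy 1.11.5) called 21 SP11 and 45 control barcodes as doublets, which were kept. UMIs were summed over kept cells and scaled to CPM. Levels carry exact Poisson intervals, log2 ratios an interval from the Clopper-Pearson bounds of a gene's split between libraries, and shares exact binomial intervals, all at 95%. For a count of 0 the limit is 3 counts, or 0.316 CPM in SP11 and 0.155 CPM in control. The interval code was tested on simulated data. A fold of 1.5 was used as a size, not a call.

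Clusters and phases were made in Seurat 5.3.0 (R 4.3.3) (scale 10000, resolution 0.5, 2000 variable features and 10 principal components), and phases were scored over both libraries together with 42 S and 52 G2M genes. Gene positions, overlaps and intronic lengths came from GENCODE 44, and promoters from RefSeq (GRCh38.p14). TMM factors (edgeR 4.0.16), DESeq2 1.42.0 size factors and other cell filters were alternatives. Replicates are mentioned in the methods of the study, but not whether cultures were pooled into a library.

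The genes and lists were chosen with earlier results of these data known. Named beside the 10 genes were HSP90B1, CANX, P4HB, ERN1, ATF6, EIF2AK3, ATF4, DDIT3, SEL1L and HERPUD1, up to 3 genes from each end of every list, the 5 genes most like the folding sum, and up to 5 leading genes of a cluster. FAU, which overlaps SYVN1, and ERO1B were named after their values were seen.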

Additional observations from a re-analysis of the deposited data

How the results depend on the processing

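The median of the 8 folding genes was 0.77 with TMM factors, 0.79 with DESeq2 size factors, 0.55 with equal weight per cell, 0.54 in cells with 7000 to 14000 UMIs and 0.22 in S cells. The number of the 10 genes at least 1.5-fold higher was 5 with TMM, 6 with DESeq2, 4 with equal weight and 4 in G1 cells. The number at least 1.5-fold lower was 0 with TMM, with DESeq2 and in G2M cells. The median of the other folding genes was 0.16 with TMM, 0.18 with DESeq2, -0.38 in S cells and 0.16 with the intronic length trend subtracted. The median of the degradation genes was 0.35 with TMM, 0.37 with DESeq2, 0.12 with equal weight, 0.14 in cells with 7000 to 14000 UMIs, 0.17 in G1 cells and 0.38 with the intronic length trend subtracted. With that subtraction ATF6 turned to 0.16 and STT3B to 0.13, and PDIA6, CANX and SEL1L turned positive. UBAC2, UGGT2, CREB3L2, EIF2AK3, ALG9 and SEC23A kept their sign with the smaller values given above. Smaller negative values were also found for ERGIC1 (-0.22), ALG6 (-0.19), SEC24D (-0.44), SRP54 (-0.33), ATF4 (-0.31) and SEC61A2 (-0.67). Others were then lower, such as CRELD1 (-1.34), DERL3 (-1.54) and DDIT3 (-0.90). The scaling values follow from the shift of the median gene given above, and the cause of the others was not tested. HSPA5, DNAJB11, PDIA3, PDIA4, CALR and SDF2L1 were positive and SYVN1 negative under each of the 16 alternatives, while PDIA6, HYOU1 and XBP1 were negative in 13. Leaving out SP11 cluster 5, or the barcodes found in both libraries, was added after the data were seen. No paired analysis was possible because each group had 1 library. With 29 UMIs in SP11, depth limits SYVN1 most: its log2 ratio ran between -1.94 in S cells and -0.08 in G2M cells, and it was -1.81 in cells with 7000 to 14000 UMIs.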
